A study of Homo sapiens with 6 samples.

Results

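The genes described here are 42 listed genes of glycolysis and of the response to low oxygen, read in MDA-MB-231, an established cell line from a triple-negative breast tumour. They fall into 22 glycolysis genes (glucose transporters, enzymes and their regulators), 4 oxygen-sensing genes and 16 targets of hypoxia-inducible factor (HIF) that are not enzymes of sugar metabolism. The members were listed by symbol, but with earlier results of these data known. On these arrays, short oligonucleotides that read the same stretch of transcript are summarised together as a probe set, and each gene was read by its brightest probe set that listed a single symbol. On that basis 41 of the 42 were tested among 14174 genes. CA9, a carbonic anhydrase, had no probe set listing it as the single symbol and was not analysed here. In 3 samples the cells stably expressed a short hairpin RNA (shRNA) that targets MYOSIN10 (MYO10 in current naming, an unconventional myosin of filopodia), and in the other 3 a scramble shRNA. All 6 grew in Leibovitz's L-15 medium with serum and without added CO2, 1 array was run per sample, and the labels name no hypoxic exposure. The labels do not say whether the 3 samples of a group came from separate cultures or clones, or how many hairpins were used, so p-values cover only how far these samples differ among themselves, and that spread could be technical.

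Glycolysis turns glucose into pyruvate and, through lactate dehydrogenase, into lactate. Many tumour cells run it at a high rate even with oxygen present. HIF is a transcription factor whose alpha subunit is marked for destruction by prolyl hydroxylases when oxygen is plentiful. When oxygen is scarce the alpha subunit persists, pairs with a beta subunit and raises genes for glucose uptake, glycolysis, blood vessel growth, pH balance and mitophagy. Because the hydroxylases act on the HIF protein, the message of a HIF alpha subunit is no measure of HIF activity.

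The hairpin's target checks the labels. MYO10 had log2 signals of 10.70, 11.39 and 10.64 with MYOSIN10 shRNA, against 11.57, 11.96 and 11.86 with scramble shRNA (limma adjusted p = 0.0303). The groups did not overlap, but the call ended without MYOSIN10 shRNA array 1 (0.137) or 3 (0.143) and without scramble array 1 (0.0643) or 3 (0.142). It also ended with no filter (0.0821), with the mean of probe sets (log2 fold change -0.55, 0.149), without _s_at, _x_at and AFFX probe sets (-0.58, 0.141) and without the variance trend (0.243), against -0.88 as reported. All log2 signals are log2 of the authors' signal plus 16, and fold changes are on that scale, with MYOSIN10 shRNA on top and scramble shRNA below. VIM, CD44, MSN and CAV1, which mesenchymal-like breast cancer lines express, had mean signals above 14 on this scale in both groups. CDH1 and PGR were not tested, as either no single-symbol probe set passed the filter on low signal or none was listed. ESR1, which luminal lines express, was at 6.62 to 7.33, and ERBB2 at 8.84 to 9.11. Scramble array 2 had a mean correlation of 0.983 with the MYOSIN10 shRNA arrays and of 0.982 with its own group. The 3' minus 5' difference of the GAPDH control probe sets, a measure of RNA integrity, was -0.087 to -0.062 in log2 with MYOSIN10 shRNA and -0.067 to -0.0069 with scramble shRNA. That of the ACTB control probe sets was 0.37 to 0.49 with MYOSIN10 shRNA and 0.46 to 0.51 with scramble shRNA. The part of these differences in the members' values was not tested.

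Across the 41 tested members, NDRG1 and BHLHE40 were called higher in MYOSIN10 shRNA cells and no member was called lower. Both are HIF targets outside sugar metabolism, and no glycolysis gene passed. The 2 called members of 41 stand beside 1.62% of all genes tested that were called, 1.16% higher and 0.459% lower (limma, Benjamini-Hochberg adjusted p under 0.05 over all 14174 genes). At an unadjusted p under 0.05 there were 12 members higher and 0 lower, beside 8.49% of all genes higher and 6.39% lower. The 3 arrays of each group did not overlap in 7 members that were higher and 1 that was lower, beside 11.2% and 8.56% of all genes (19.8% in either direction). In bulk RNA, a different share of cells with a message and a different amount per cell cannot be told apart.

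**Figure D1:**
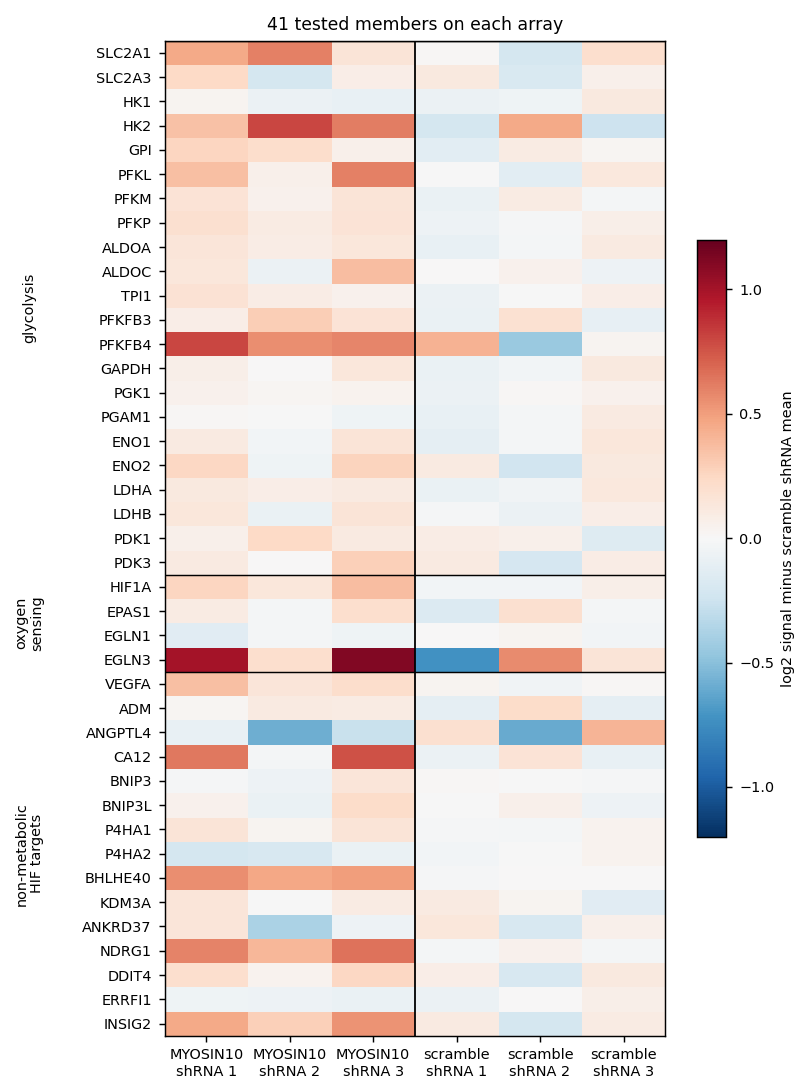
Log2 signal of each tested member (rows) on each array (columns), as the difference from that gene's scramble shRNA mean, in red above and blue below it. The rows of NDRG1, BHLHE40 and INSIG2 are red on all 3 MYOSIN10 shRNA arrays, while ANGPTL4 is below its scramble mean on all 3 and on scramble array 2.

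The size of the differences was small for most members. Of the 41, 34 were on the positive side, and the log2 fold changes had a median of 0.12 and a range from -0.31 (ANGPTL4) to 0.77 (EGLN3). Of all genes tested, 51.8% were positive, with a median of 0.0093. In the plot of fold changes, the 95% intervals of 29 members include 0.

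**Figure D2:**
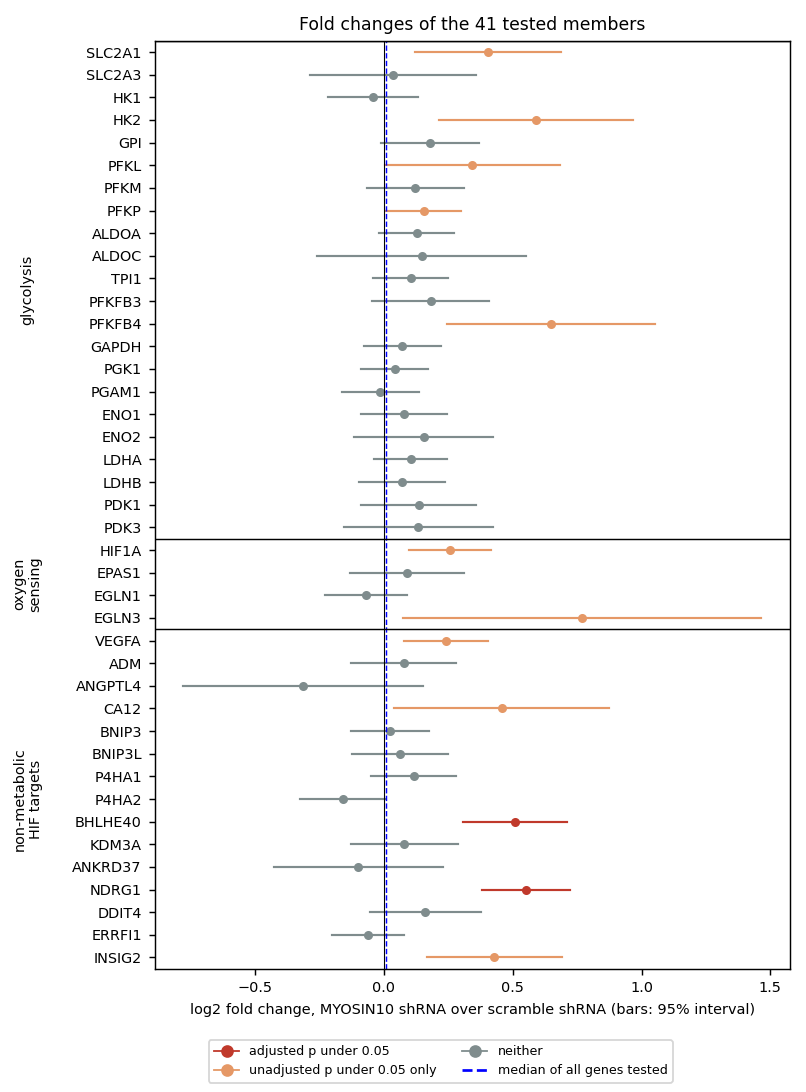
Log2 fold change of each tested member, MYOSIN10 shRNA over scramble shRNA, with its 95% interval from limma. NDRG1 at 0.55 and BHLHE40 at 0.51 are the called members, and the dashed line is the median of all genes tested, 0.0093.

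Among the glucose transporters, SLC2A1 was higher on average and SLC2A3 was nearly level, and neither passed. SLC2A1, the widely expressed transporter that brings glucose into the cell, had log2 signals of 11.78, 11.93 and 11.47 with MYOSIN10 shRNA, against 11.33, 11.11 and 11.52 with scramble shRNA. MYOSIN10 shRNA array 3 lay below scramble array 3, so the groups overlapped. The log2 fold change was 0.40 ± 0.13 (SE, n = 3 each; limma adjusted p = 0.155), and a second, dimmer probe set gave 0.049. For SLC2A3, a transporter best known in neurons, the value was 0.036 (limma adjusted p = 0.94), with an interval from -0.29 to 0.36.

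In the upper part of the pathway, 8 of 9 enzymes had positive values, none passed, and 3 had an unadjusted p under 0.05. HK2, the inducible hexokinase that traps glucose in the cell as a phosphate, had log2 signals of 11.64, 12.08 and 11.90 with MYOSIN10 shRNA, against 11.07, 11.74 and 11.03 with scramble shRNA. Scramble array 2 stood above the lowest MYOSIN10 shRNA array. The log2 fold change was 0.59 ± 0.17 (SE, n = 3 each; limma adjusted p = 0.119). Without scramble array 2 it was 0.82 and passed (limma adjusted p = 0.00172). That fit called 964 of all genes tested, against 229 in the fit as reported. Over the fits with 1 array left out, the HK2 value ran from 0.47 to 0.82. It passed in 1 of these, and the limma adjusted p-values reached 0.40. Of 2 dimmer HK2 probe sets, 1 gave 0.12 and the other -0.86, neither called among all probe sets. HK1, the constitutive hexokinase, stood at -0.043, with an interval from -0.22 to 0.13.

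The phosphofructokinases carry out the committed step of glycolysis, and their 3 subunit genes had positive values. PFKP, the platelet-type subunit, had signals of 13.79, 13.69 and 13.75 with MYOSIN10 shRNA, against 13.53, 13.58 and 13.66 with scramble shRNA. Its groups did not overlap, yet the fold change was only 1.11 (limma adjusted p = 0.305). PFKL, the liver-type subunit, had 9.03, 8.72 and 9.27 with MYOSIN10 shRNA, against 8.66, 8.54 and 8.79 with scramble shRNA. Its groups overlapped through MYOSIN10 shRNA array 2 (log2 fold change 0.34, limma adjusted p = 0.332), while its second probe set gave 0.37 with no overlap. Without MYOSIN10 shRNA array 3 the PFKL value was 0.21 (0.694). PFKM, the muscle-type subunit, stood at 0.12 (limma adjusted p = 0.556).

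The other upper enzymes differed less. GPI, which isomerises glucose phosphate to fructose phosphate, stood at 0.18 (limma adjusted p = 0.377). The aldolases, which split the 6-carbon sugar, stood at 0.13 for ALDOA and 0.15 for ALDOC. TPI1, which interconverts the 3-carbon products, stood at 0.10, and a dim probe set of it gave -0.22.

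The regulators of phosphofructokinase were both on the positive side. PFKFB3 and PFKFB4 make and break an allosteric activator of that enzyme, a form of fructose bisphosphate distinct from the enzyme's own product. PFKFB4 had signals of 9.85, 9.61 and 9.64 with MYOSIN10 shRNA, against 9.47, 8.60 and 9.09 with scramble shRNA. All 3 MYOSIN10 shRNA arrays lay above all 3 scramble arrays, and scramble array 2 was the lowest. The log2 fold change was 0.65 ± 0.19 (SE, n = 3 each; limma adjusted p = 0.113), or 0.42 without scramble array 2. PFKFB3 stood at 0.18 (limma adjusted p = 0.453).

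The lower part of the pathway is where ATP is harvested. Its 5 listed enzymes had a median log2 fold change of 0.070, beside 0.15 for the 9 upper enzymes. None of the 5 had an unadjusted p under 0.05. Pyruvate kinase is not among these 5. PKM, a pyruvate kinase gene from a further list, stood at 0.16 (limma adjusted p = 0.45) with groups that did not overlap, above each of the 5. ENO2, the enolase best known from neurons, had 10.71, 10.42 and 10.74 with MYOSIN10 shRNA, against 10.57, 10.24 and 10.59 with scramble shRNA. The array numbered 2 was the lowest in each group, and the groups overlapped (log2 fold change 0.15, limma adjusted p = 0.619). GAPDH, often used as a reference gene, had signals of 15.10, 15.03 and 15.17 with MYOSIN10 shRNA, against 14.95, 14.99 and 15.14 with scramble shRNA. Its log2 fold change was 0.070, and its 5 other probe sets ran from 0.033 to 0.12. PGK1 stood at 0.041, PGAM1 at -0.014 and ENO1 at 0.077. Under quantile normalization GAPDH turned to -0.0011 and PGK1 to -0.030.

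Lactate dehydrogenase and the kinases that hold pyruvate back from the mitochondrion did not pass either. LDHA, the subunit that favours lactate production, had 15.19, 15.16 and 15.18 with MYOSIN10 shRNA, against 14.99, 15.03 and 15.20 with scramble shRNA. Scramble array 3 was as high as the MYOSIN10 shRNA arrays (log2 fold change 0.10, limma adjusted p = 0.508), and LDHB stood at 0.070. PDK1, a kinase that inhibits pyruvate dehydrogenase, had 10.50, 10.68 and 10.55 with MYOSIN10 shRNA, against 10.53, 10.50 and 10.29 with scramble shRNA, with overlapping groups. Its log2 fold change of 0.13 (limma adjusted p = 0.592) was close to the 0.13 of PDK3. Dimmer PDK1 probe sets gave 0.23, with no overlap between groups, and -0.099. Dimmer PDK3 probe sets gave -0.12, -0.089, -0.25 and 0.30.

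Several glycolysis members were read at very high signal, where all genes leaned the same way. Of the 239 tested genes with a mean log2 signal of 14 or more, 74.5% were higher on average with MYOSIN10 shRNA, and the median log2 fold change was 0.055. The 9 members in that range had a median of 0.077, and 8 of them were positive. Between signals of 8 and 10, where all genes had a median of 0.025, the 7 members had a median of 0.34. After the median of all genes in the same signal range was subtracted, the median of the 22 glycolysis members was 0.11, with 19 positive. That of the 15 non-metabolic HIF targets was then 0.082, with 11 positive. The part of this lean in the values of the glycolysis genes was not tested further.

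The message of HIF1A, the broadly expressed HIF alpha subunit, was higher on all 3 MYOSIN10 shRNA arrays but did not pass. Its signals were 14.32, 14.20 and 14.43 with MYOSIN10 shRNA, against 14.02, 14.02 and 14.13 with scramble shRNA. The groups did not overlap, and the log2 fold change was 0.26 ± 0.073 (SE, n = 3 each; limma adjusted p = 0.113). Without both arrays numbered 2 it was 0.30 and passed (limma adjusted p = 0.0409). That fit called 1224 of all genes tested, against 229 in the fit as reported. When any single array was left out, HIF1A ran from 0.20 to 0.32 and did not pass (limma adjusted p-values from 0.0796 to 0.397). EPAS1, the alpha subunit best known from endothelium, stood at 0.090, with an interval from -0.13 to 0.31.

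The prolyl hydroxylases that mark HIF for destruction gave opposite signs. EGLN3, itself a HIF target, had signals of 8.52, 7.72 and 8.64 with MYOSIN10 shRNA, against 6.80, 8.10 and 7.68 with scramble shRNA. Its groups overlapped through the arrays numbered 2, MYOSIN10 shRNA array 2 being low and scramble array 2 high for their groups. The log2 fold change was 0.77 ± 0.32 (SE, n = 3 each; limma adjusted p = 0.287). Without both of those arrays it was 1.34 and passed (limma adjusted p = 0.00859), in the fit that called 1224 genes. It was 0.41 without scramble array 1 (0.659). A second EGLN3 probe set gave 0.81 with no overlap between groups (limma adjusted p = 0.0865 among all probe sets). EGLN1, the main oxygen sensor of most cells, stood at -0.071, with an interval from -0.23 to 0.088.

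**Figure D3:**
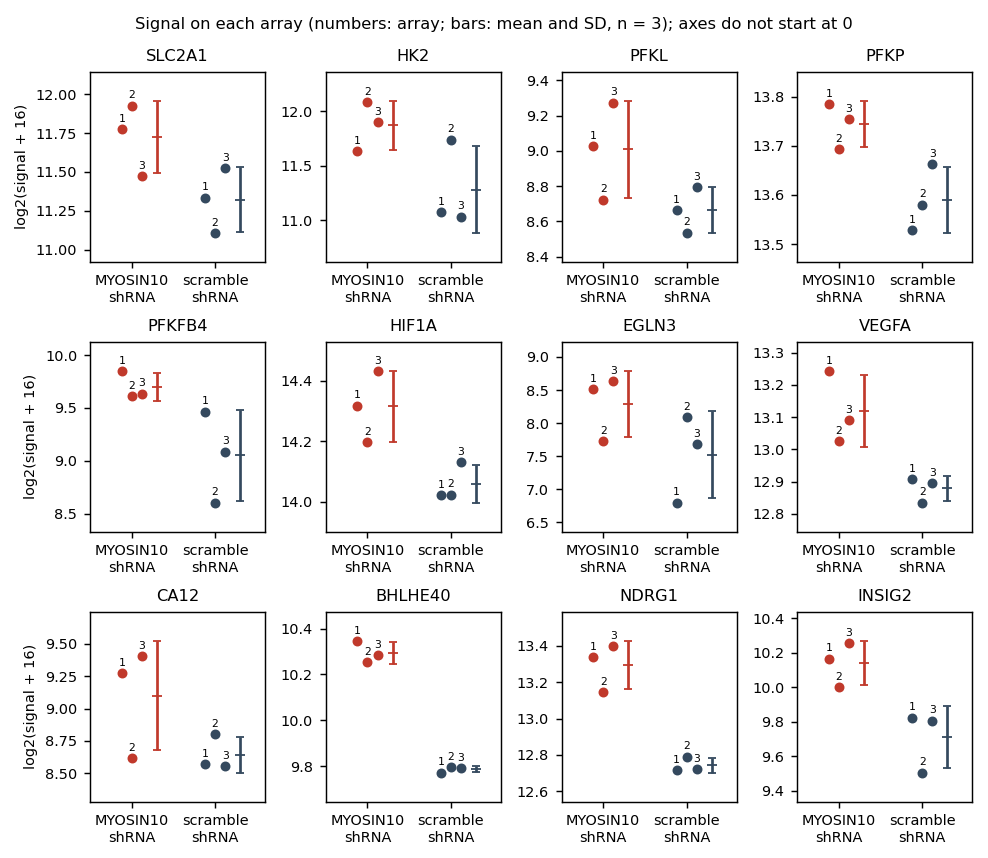
Log2(signal + 16) on each array for the 12 members with an unadjusted p under 0.05, MYOSIN10 shRNA on the left and scramble shRNA on the right of each panel, with the mean and SD (n = 3) beside the points. NDRG1 and BHLHE40 show a gap between groups wider than the spread within either, and in EGLN3, CA12 and HK2 an array numbered 2 closes the gap.

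NDRG1, which low oxygen and other stresses induce and which is linked to differentiation, had the lowest p-value of the members. Its signals were 13.34, 13.15 and 13.40 with MYOSIN10 shRNA, against 12.72, 12.79 and 12.72 with scramble shRNA. The lowest MYOSIN10 shRNA array lay clear of the highest scramble array. NDRG1 rose 1.47-fold (log2 fold change 0.55 ± 0.079 SE, n = 3 each; limma adjusted p = 0.00578), and it stayed called when any single array was left out, with adjusted p-values from 0.00225 to 0.0477. It has 1 probe set in the annotation used, and the call ended without the variance trend (limma adjusted p = 0.158).

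BHLHE40, a transcriptional repressor that takes part in the circadian clock and in the hypoxia response, rose 1.42-fold. Its signals were 10.35, 10.25 and 10.28 with MYOSIN10 shRNA, against 9.77, 9.79 and 9.79 with scramble shRNA. The arrays within each group were close together (SD 0.047 with MYOSIN10 shRNA and 0.013 with scramble shRNA). The log2 fold change was 0.51 ± 0.093 (SE, n = 3 each; limma adjusted p = 0.0187). The call ended without MYOSIN10 shRNA array 1 (limma adjusted p = 0.124) or 3 (0.0985) and without scramble array 1 (0.0939) or 3 (0.0981), and without the variance trend (0.117). A second, dim probe set of BHLHE40 gave 0.011, and the mean of the 2 probe sets gave 0.26 (limma adjusted p = 0.476).

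The other signalling and stress genes did not pass. INSIG2, a protein of the endoplasmic reticulum that restrains sterol synthesis, had 10.17, 10.00 and 10.25 with MYOSIN10 shRNA, against 9.82, 9.50 and 9.81 with scramble shRNA. Its groups did not overlap, and its log2 fold change was 0.43 ± 0.12 (SE, n = 3 each; limma adjusted p = 0.106). Without both arrays numbered 2 it was 0.39 and passed (limma adjusted p = 0.03), in the fit that called 1224 genes. When any single array was left out, INSIG2 ran from 0.32 to 0.50 and did not pass (limma adjusted p-values from 0.101 to 0.354). DDIT4, an inhibitor of mTOR signalling, stood at 0.16 and ERRFI1, a feedback inhibitor of the epidermal growth factor receptor, at -0.062.

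The secreted factors differed in sign. VEGFA, the main growth factor for blood vessels, had signals of 13.24, 13.03 and 13.09 with MYOSIN10 shRNA, against 12.91, 12.83 and 12.90 with scramble shRNA. Its groups did not overlap, but the difference of 0.24 ± 0.075 (SE, n = 3 each) did not pass (limma adjusted p = 0.145). Its 3 other probe sets gave 0.35, 0.48 and -0.0030. ADM, a vasodilator peptide, stood at 0.076. ANGPTL4, an inhibitor of lipoprotein lipase, had 12.78, 12.28 and 12.61 with MYOSIN10 shRNA, against 13.07, 12.27 and 13.28 with scramble shRNA. Its lowest value in each group was on array 2, and the log2 fold change was -0.31 (limma adjusted p = 0.538). Without scramble array 2 it was -0.62 and passed (limma adjusted p = 0.0137), in the fit that called 964 genes. It was -0.11 without scramble array 3 (0.894) and -0.18 without MYOSIN10 shRNA array 2 (0.771).

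Of the remaining HIF targets, 1 had an unadjusted p under 0.05. CA12, a carbonic anhydrase of the cell surface, had 9.28, 8.62 and 9.41 with MYOSIN10 shRNA, against 8.57, 8.80 and 8.56 with scramble shRNA. MYOSIN10 shRNA array 2 lay among the scramble arrays. The log2 fold change was 0.46 ± 0.19 (SE, n = 3 each; limma adjusted p = 0.292), and without MYOSIN10 shRNA array 2 it was 0.70 and passed (limma adjusted p = 0.0461), while without MYOSIN10 shRNA array 3 it was 0.30 (0.628). Its 5 other kept probe sets ran from -0.26 to 0.58.

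The collagen prolyl hydroxylases, which stabilise the collagen triple helix, gave opposite signs. P4HA2 had 11.77, 11.79 and 11.90 with MYOSIN10 shRNA, against 11.95, 11.97 and 12.03 with scramble shRNA. It was the single member whose groups did not overlap in the lower direction, by a small amount (log2 fold change -0.16, limma adjusted p = 0.357), while P4HA1 stood at 0.11. The mitophagy receptors were nearly level. BNIP3L had 12.76, 12.62 and 12.92 with MYOSIN10 shRNA, against 12.70, 12.77 and 12.65 with scramble shRNA, and its groups overlapped. Its log2 fold change was 0.062, and that of BNIP3 was 0.022, with intervals from -0.12 to 0.25 and from -0.13 to 0.17. KDM3A, a histone demethylase, stood at 0.079 and ANKRD37, an ankyrin repeat protein, at -0.10.

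The glycolysis genes and the non-metabolic HIF targets were set side by side. Of 22 glycolysis genes, 20 had positive values with a median of 0.13, and 0 were called by limma, with 5 at an unadjusted p under 0.05. Of 15 non-metabolic HIF targets, 11 had positive values with a median of 0.079, and 2 were called, with 5 at an unadjusted p under 0.05. The groups did not overlap in 2 glycolysis genes, both higher, and in 5 HIF targets, 4 higher and 1 lower. Over all genes tested, 1.62% were called, 14.9% had an unadjusted p under 0.05 and 19.8% had groups that did not overlap. The difference between these 2 lists was not tested. Leaving out single arrays moved the glycolysis median between 0.10 and 0.15 and the HIF target median between 0.033 and 0.13. The glycolysis median was the higher in 5 of those 6 fits and the lower without scramble array 1 (0.10 against 0.11). Those fits share most of their arrays. With the median of genes of like signal subtracted, the list medians were closer, at 0.11 for glycolysis and 0.082 for HIF targets.

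**Figure D4:**
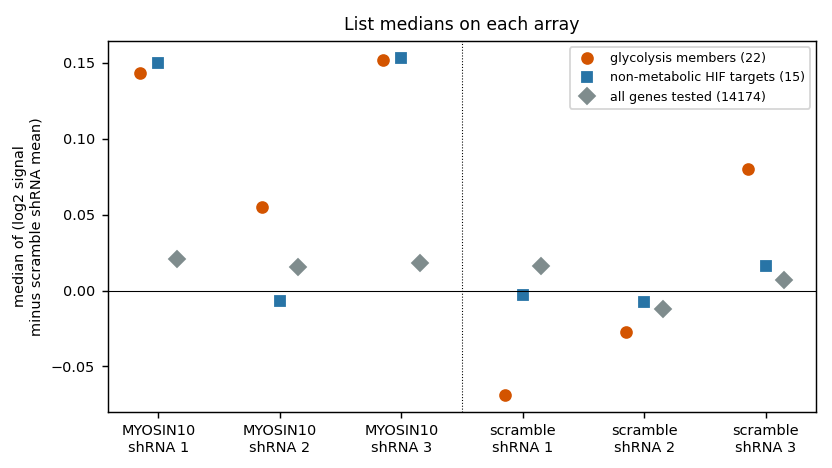
Median over each list of the log2 signal minus the gene's scramble shRNA mean, on each array. The glycolysis median is 0.14, 0.055 and 0.15 on MYOSIN10 shRNA arrays 1 to 3 and -0.069, -0.027 and 0.080 on scramble arrays 1 to 3, and all genes tested stay between -0.012 and 0.021.

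The list medians by array overlapped between the groups. The glycolysis median of MYOSIN10 shRNA array 2, 0.055, lay below that of scramble array 3, 0.080. For the HIF targets, the medians were 0.15, -0.0069 and 0.15 on the MYOSIN10 shRNA arrays, against -0.0030, -0.0076 and 0.016 on the scramble arrays. MYOSIN10 shRNA array 2 was the low array of its group in both lists.

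The promoters of the members were searched for the core letters of the HIF binding site, ACGTG and GCGTG, on both strands, in windows of 300 bases from 250 before to 50 after the RefSeq start (GRCh38.p14). The palindrome CACGTG reads ACGTG on both strands and counts as 2 matches. SLC2A3, VEGFA, BNIP3L and NDRG1 had no window. Of 38 members with a window, 18 held ACGTG, or 47.4%, beside 25.7% of the promoters of genes tested and 21.6% of all promoters in the table. Because 16 members were listed as HIF targets, this share describes the list and is not a test. GCGTG was in 50% of the members' windows, beside 48.4% of the promoters of genes tested. ACGTG was in 8 of 13 HIF targets and in 9 of 21 glycolysis genes. Among the 10 members with a window and an unadjusted p under 0.05, 3 held ACGTG, or 30%, and 7 held GCGTG, or 70%. The windows of 4 genes are shown in lower case with both motifs in capitals, where CACGT and CACGC are the motifs read on the opposite strand. These 4 genes were picked by hand. BHLHE40 and INSIG2 had groups that did not overlap, while ANKRD37 and LDHA hold 3 and 6 matches and had overlapping groups. PFKP and P4HA2, not shown, had groups that did not overlap and hold no match.
BHLHE40 (chr3:4979187-4979486, + strand): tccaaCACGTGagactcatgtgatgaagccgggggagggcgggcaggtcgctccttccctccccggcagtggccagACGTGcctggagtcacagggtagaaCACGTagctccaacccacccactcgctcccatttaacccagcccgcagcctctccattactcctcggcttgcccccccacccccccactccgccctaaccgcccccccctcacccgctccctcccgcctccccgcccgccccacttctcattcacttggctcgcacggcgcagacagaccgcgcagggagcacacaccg
INSIG2 (chr2:118088221-118088520, + strand): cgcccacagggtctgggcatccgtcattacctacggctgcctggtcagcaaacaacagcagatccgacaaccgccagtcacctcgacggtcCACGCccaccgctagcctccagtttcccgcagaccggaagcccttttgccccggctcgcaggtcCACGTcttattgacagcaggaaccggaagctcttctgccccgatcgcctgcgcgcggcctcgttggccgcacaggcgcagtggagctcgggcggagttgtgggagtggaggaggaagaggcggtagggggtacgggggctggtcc
ANKRD37 (chr4:185396591-185396890, + strand): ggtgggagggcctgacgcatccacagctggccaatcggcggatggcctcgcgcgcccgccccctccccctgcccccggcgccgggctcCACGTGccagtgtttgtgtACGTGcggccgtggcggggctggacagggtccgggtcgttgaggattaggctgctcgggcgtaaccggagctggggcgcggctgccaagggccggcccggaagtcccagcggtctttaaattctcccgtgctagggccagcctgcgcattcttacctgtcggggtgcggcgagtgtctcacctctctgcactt
LDHA (chr11:18394313-18394612, + strand): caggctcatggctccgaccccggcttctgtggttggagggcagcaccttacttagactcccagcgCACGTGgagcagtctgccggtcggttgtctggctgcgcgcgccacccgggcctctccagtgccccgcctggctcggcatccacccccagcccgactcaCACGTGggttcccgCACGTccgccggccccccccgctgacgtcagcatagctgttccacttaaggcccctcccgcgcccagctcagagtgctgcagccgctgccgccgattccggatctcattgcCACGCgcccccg
BHLHE40 holds 4 matches in its window and INSIG2 holds 2. A match is a stretch of letters and not a measured site, and these arrays hold no binding data.

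Other genes of the same pathways were read from 2 further lists. In the list of other glycolysis and pyruvate genes, 24 of 34 were tested and 0 were called by limma, beside 1.62% of all genes tested. At an unadjusted p under 0.05, 5 were higher and 1 lower, beside 8.49% and 6.39% of all genes. The groups did not overlap in 8 of the 24, beside 19.8% of all genes. The higher ones included FBP1, which reverses the phosphofructokinase step, at 0.73 (limma adjusted p = 0.0903), and DLAT, a core subunit of pyruvate dehydrogenase, at 0.37 (0.0811). The others were BSG, a chaperone of lactate transporters, at 0.26 (0.246), MPC1, a subunit of the mitochondrial pyruvate carrier, at 0.21 (0.321), and PGM1, a phosphoglucomutase, at 0.17 (0.327). PDK2, a further pyruvate dehydrogenase kinase, stood at -0.38 (0.329). Without scramble array 2, FBP1 (0.89, limma adjusted p = 0.017) and DLAT (0.46, 0.00982) passed, among 964 genes called in that fit. Over all fits with 1 array left out, FBP1 fell as low as 0.55 and DLAT as low as 0.32. Their limma adjusted p-values there reached 0.320 and 0.324. The list's median was 0.060.

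In the list of other HIF pathway genes, 37 of 40 were tested, with a median of 0.049. Of these 37, 2 were called, both higher, beside 1.62% of all genes tested. At an unadjusted p under 0.05, 5 were higher and 3 lower, beside 8.49% and 6.39% of all genes. The groups did not overlap in 11 of the 37, beside 19.8% of all genes. ZNF395, a hypoxia-inducible transcription factor, had 10.81, 10.69 and 10.79 with MYOSIN10 shRNA, against 9.74, 9.81 and 9.58 with scramble shRNA. It rose 2.08-fold (limma adjusted p = 0.00051), and its second, dimmer probe set gave 0.28 with overlapping groups. The ZNF395 call ended without the variance trend (limma adjusted p = 0.0556). ARNT2, a partner of HIF alpha subunits best known from the brain, had 9.27, 9.16 and 8.91 with MYOSIN10 shRNA, against 7.98, 8.34 and 8.11 with scramble shRNA. It rose 1.96-fold (limma adjusted p = 0.00785), and the call ended when the variance trend was dropped (0.117) and without MYOSIN10 shRNA array 1 (0.062). ARNT, the usual partner, stood at -0.28 (limma adjusted p = 0.537), and VHL, which recognises hydroxylated HIF, at 0.21 (0.456) with groups that did not overlap.

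Further genes of that list had an unadjusted p under 0.05 without being called. Those higher were TMEM45A, a membrane protein, at 0.52 (limma adjusted p = 0.0629), GYS1, muscle glycogen synthase, at 0.53 (0.0985) and PLOD2, a collagen lysyl hydroxylase, at 0.21 (0.154). Those lower were the nuclear receptor RORA at -0.94 (0.126), IGFBP3, a binding protein of insulin-like growth factors, at -0.75 (0.15), and MET, the hepatocyte growth factor receptor, at -0.31 (0.079). Without scramble array 2, IGFBP3 (-1.11, limma adjusted p = 0.000226), TMEM45A (0.0351) and MET (0.0454) passed, among 964 genes called in that fit. TMEM45A (limma adjusted p = 0.0339) and MET (0.0308) also passed without MYOSIN10 shRNA array 2. In other fits with 1 array left out, limma adjusted p-values reached 0.472 for IGFBP3, 0.272 for TMEM45A and 0.324 for MET. The smallest differences in those fits were -0.57 for IGFBP3, 0.46 for TMEM45A and -0.26 for MET.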

How the data were processed

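RNA of 6 samples was labelled with a 3' in vitro transcription kit and read on 1-colour arrays of 54675 probe sets, per the labels' protocols. The submitters' processing notes name MAS5, with its version and settings not given in the sources used here. Values as deposited range as log2 signal does, and were taken as that. Every array has a 2% trimmed mean of about 500.1 in linear signal, so a change of total RNA per cell would not show. Arrays carry no read depth, and 3 arrays per group limit the precision.

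The linear signal plus 16 was taken to log2. Probe sets at or above their array's 40th percentile on at least 3 arrays were kept (33370), and symbols came from the platform annotation, updated by gene number through RefSeq (41043 of 41097 probe sets with 1 symbol matched, while 1801 list several and 11777 none). Each gene took its brightest kept probe set. The fit used R 4.3.3 and limma 3.58.1 (two-sided moderated test from lmFit and eBayes, trend on), with Benjamini-Hochberg adjustment over all 14174 genes. The steps were tested on simulated data. Suffixes _s_at and _x_at mark probe sets that may read related transcripts, so the signals of enzymes with many pseudogenes, such as GAPDH, may be shared. Figures used Python 3.11.15 and matplotlib 3.10.9.

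Values on every array are given for members that were called, had an unadjusted p under 0.05 or did not overlap, and for the largest difference in each other role. GAPDH and ANGPTL4 were added after their values were seen, as were ARNT, VHL and PKM. The members and lists were chosen with earlier results of these data known. Alternatives were another pseudocount, filter, scaling, probe set rule, variance model, array weights, a replicate block and arrays left out.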

Additional observations from a re-analysis of the deposited data

How the results depend on the processing

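The medians of the glycolysis genes and of the non-metabolic HIF targets stayed positive in all 18 alternatives and moved by less than the spread between arrays. The count of called members, 2 by the fit as reported, was 1 when probe sets of a gene were averaged, 0 without _s_at, _x_at and AFFX probe sets and 0 without a variance trend (limma, with 6 and 8 members at an unadjusted p under 0.05). Without those probe sets only 22 members were tested and neither NDRG1 nor BHLHE40 was among them. It was 5 with array weights (with HK2, HIF1A and INSIG2) and 8 without both arrays numbered 2 (with HK2, HIF1A, EGLN3, CA12, INSIG2 and, lower, ANGPTL4), and it ran from 1 to 4 when single arrays were left out. The highest of these, without scramble array 2, held 3 higher and 1 lower. The count of all called genes, 229, was 126 without a filter, 111 with the mean of probe sets, 7 without a variance trend, 791 with array weights and 1224 without both arrays numbered 2, and 66 to 964 when single arrays were left out. The causes were not tested.

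With the replicate number as a block, 6 members and 611 genes were called, the members being NDRG1, BHLHE40, HK2 (limma adjusted p = 0.00448), PFKFB4 (0.0171), HIF1A (0.0296) and INSIG2 (0.0306). In the other lists FBP1 (0.0106), DLAT (0.0466), GYS1 (0.0351), TMEM45A (0.0321), MET (0.0328) and IGFBP3 (0.00489) were called too. The numbers are not known to pair the samples: deviations of same-numbered arrays correlated at 0.059, 0.16 and 0.040, and MYOSIN10 shRNA array 3 correlated best with scramble array 1 (0.066). The 0.16 of the arrays numbered 2 was the highest of all pairs. An array numbered 2 correlated at -0.11 to -0.072 with arrays 1 and 3 of the other group. Deviations from a group mean cancel out within the group, so these negative values follow from that 0.16 and are no separate observation.

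Signs turned only for uncalled genes. Under quantile normalization they were GAPDH (-0.0011), PGK1 (-0.030) and BNIP3 (-0.012). With the mean of probe sets they were HK2 (-0.048), PGK1 (-0.036), PDK3 (-0.0051) and EGLN1 (0.021), and without _s_at, _x_at and AFFX probe sets TPI1 (-0.22) and PGK1 (-0.069). Among single arrays left out, SLC2A3 ran from -0.066 to 0.16, ANKRD37 from -0.22 to 0.041, PGAM1 from -0.057 to 0.042, BNIP3 from -0.037 to 0.062, BNIP3L from -0.015 to 0.13 and HK1 from -0.082 to 0.018.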

Other observations

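The arrays numbered 2 were set against arrays 1 and 3 of their own group, a contrast chosen after the values were seen. Of the 41 tested members, 12 were lowest on array 2 in both groups, beside 19.8% of all genes tested, and 4 were highest on array 2 in both groups, beside 15.3%. ANGPTL4 was lower on array 2 by 0.41 in log2 with MYOSIN10 shRNA and by 0.91 with scramble shRNA. PFKFB4 was lower by 0.13 with MYOSIN10 shRNA and by 0.67 with scramble shRNA. HK2, a HIF target as well, ran the other way and was higher on array 2 by 0.31 with MYOSIN10 shRNA and by 0.69 with scramble shRNA, as was PFKFB3 by 0.17 and 0.27. The regulators PFKFB3 and PFKFB4 therefore stood on opposite sides. The labels give no meaning to the numbers.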
